A study of Mus musculus with 3 samples.

Results

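Myosin light chains are the small subunits that wrap the neck of the myosin heavy chain, and this account covers 9 genes around them in the mouse heart ventricle. They were taken by gene name from the deposited transcript annotation: Myl2, Myl7, Myl3, Myl4, Myl1, Mylpf, Myl6, Myl9 and the kinase gene Mylk3. Each name led to 1 locus of the expression table, so 9 of its 48626 loci are described, and all 9 reached 1 FPKM in a library. Total RNA of C57BL/6 ventricles was sequenced at the embryonic stages E10.5 and E13.5 (named by the day of gestation) and from mice aged 8 weeks (Adult). Each stage has 1 library, and the labels name no treatment. How many animals were pooled in a library, and their sex, are not given in the sources used here.

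Each myosin head carries an essential light chain, which stiffens the lever arm, and a regulatory light chain, whose phosphorylation tunes contraction. In the heart, Myl2 (MLC2v) and Myl7 (MLC2a) are the ventricular and atrial regulatory chains, while Myl3 (MLC1v) and Myl4 (MLC1a) are the ventricular and atrial essential chains. The atrial forms are known from the whole embryonic heart tube as well as from the atria. Myl1 and Mylpf encode the essential and regulatory chains of fast skeletal muscle, Myl6 and Myl9 those of smooth muscle and non-muscle cells, and Mylk3 encodes the cardiac myosin light chain kinase.

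The values are FPKM, numbers of sequenced fragments divided by transcript length and by library depth, so levels can be set side by side between genes. Where 3 values follow each other without stages, they are in the order E10.5, E13.5 and Adult. Since each stage has a single library, no difference between stages or order of genes can be held against a replicate spread, and no p-value is given. The most common low value of FPKM times length among unspliced loci was taken as 1 fragment. With it, a transcript of 1 kb at 1 FPKM was estimated to hold 13.8, 26.7 and 13.8 fragments. Where that value stood for more than 1 fragment, the estimate is too low. The study's text gives about the same read count for each sample, so these estimates and the fragment numbers below are rough. Over the 12569 protein-coding (mRNA) loci that reached 1 FPKM in any library, the median change on the log2(FPKM + 1) scale was 0.17 from E10.5 to E13.5, -0.50 from E13.5 to adult ventricle and -0.40 from E10.5 to adult ventricle, and member changes are to be read against these shifts. All 8 cardiomyocyte markers were at 10 FPKM or more in both embryonic libraries and 7 of them in adult ventricle, where Nkx2-5 was at 9.37. Of the 3 ventricular markers, Irx4 was at 24.0, 21.5 and 7.60 FPKM, Hey2 at 43.1, 73.2 and 5.38, and Pln at 505, 745 and 4551, so the first pair were lowest and Pln highest in adult ventricle. In these bulk samples fewer cells of a type and less RNA per cell cannot be told apart.

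The ventricular regulatory chain Myl2 was the most abundant member in each library. Its locus (chromosome 5, 122099635 to 122113568, plus strand, mm10) was at 7789.8 FPKM in E10.5 ventricle, 12217 in E13.5 ventricle and 11568 in adult ventricle. This was the highest value among expressed mRNA loci at E10.5 and in adult ventricle and the second highest at E13.5. The locus also holds an unspliced transcript assigned as opposite in strand to Ccdc63, and it is the single member locus that joins a second gene name. The Ccdc63 locus on the other strand was listed at 0 in each library.

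The ventricular essential chain Myl3 (chromosome 9, 110750817 to 110769799, plus strand) was at 1087 FPKM in E10.5 ventricle, 2238 in E13.5 ventricle and 2215 in adult ventricle. Both ventricular chains were thus higher at E13.5 and in adult ventricle than at E10.5 in FPKM as deposited. Myl2 was 1.57-fold higher at E13.5 than at E10.5 and 1.49-fold higher in adult ventricle, although its log2 change turned to -0.04 and -0.32 when the libraries were set relative to the sarcomere genes Tnnt2, Tnnc1 and Actc1. Myl3 was 2.06-fold and 2.04-fold higher, with the same sign under each scaling tried. The sarcomere genes of that scaling themselves differed between stages. Tnnt2 was at 626, 1522 and 3148 FPKM, Tnnc1 at 1121, 1870 and 1892, and Actc1 at 4487, 4646 and 3353. From E13.5 to adult ventricle the log2 changes were -0.08 for Myl2 and -0.02 for Myl3 as deposited, and 0.54 and 0.61 with median-of-ratios scaling, so the sign of this step depended on the scaling.

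The atrial regulatory chain Myl7 (chromosome 11, 5896637 to 5899082, minus strand) was at 2453 FPKM in E10.5 ventricle, 1935 in E13.5 ventricle and 0.719 in adult ventricle. At E10.5 it was the fifth highest mRNA locus and in adult ventricle it ranked 11423 of 12569. The adult value rests on about 5.85 fragments for its shorter transcript of 590 nt or 11.02 for its longer one of 1111 nt, so the 3410-fold lower level than in E10.5 ventricle is imprecise. On the log2(FPKM + 1) scale no expressed mRNA locus had a lower change from E10.5 to adult ventricle than Myl7, at -10.48. This order depends on the added 1. By FPKM alone, the globin genes Hbb-bh1 and Hba-x were 15594-fold and 11175-fold lower in adult than in E10.5 ventricle.

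The atrial essential chain Myl4 (chromosome 11, 104550663 to 104587219, plus strand) was at 2164 FPKM in E10.5 ventricle, 2439.9 in E13.5 ventricle and 1.42 in adult ventricle, which is about 17.3 fragments of its 883 nt transcript. Its change from E10.5 to adult ventricle was -9.81 on the log2(FPKM + 1) scale. On that scale 6 of the 12569 mRNA loci lay lower, an order that also depends on the added 1. Between the embryonic stages Myl7 was 1.27-fold lower at E13.5 under the deposited scaling, while Myl4 was 1.13-fold higher. The sign for Myl7 was the same under each scaling, whereas that for Myl4 turned under 3 of the 4 alternative scalings, with log2 changes of -0.26, -0.24 and -0.52 against 0.17 as deposited.

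**Figure D1:**
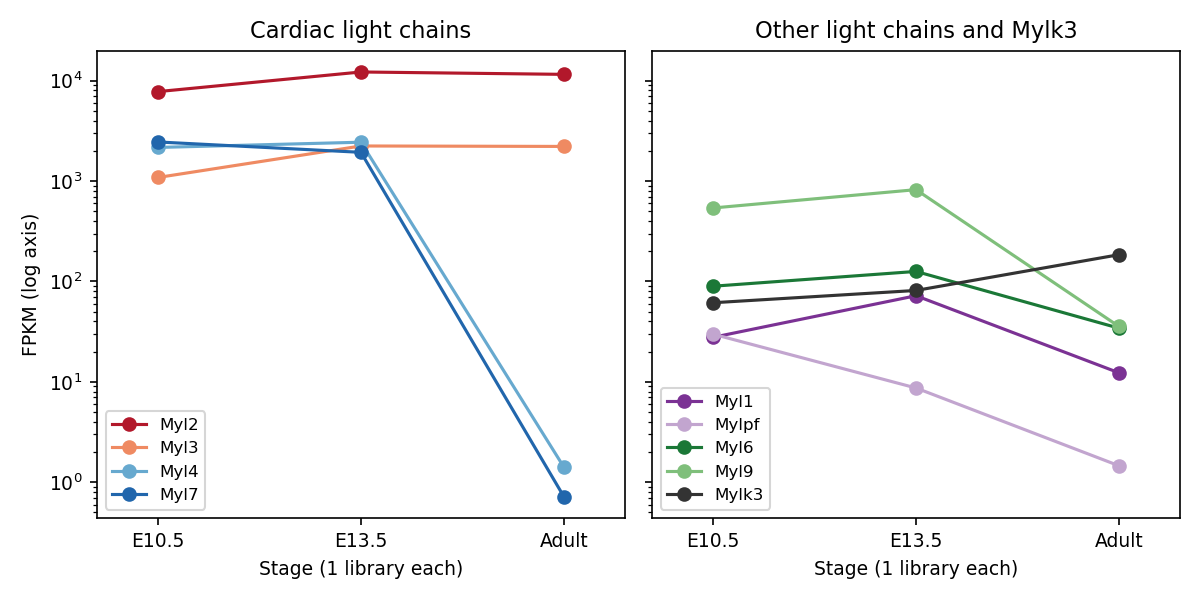
FPKM of the 9 genes (vertical log axis) at the 3 stages (horizontal axis), with 1 point per library and lines joining the points of a gene. On the left Myl2 and Myl3 stay at 1087 FPKM or more at each stage while Myl4 and Myl7 lie at 1.42 and 0.719 FPKM in adult ventricle, and on the right Mylk3 is highest in adult ventricle at 185 FPKM while Myl9 is at 35.7.

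To compare the forms without any scaling between libraries, the atrial form was expressed as a share of its pair within each library. Myl7 made up 24.0% of the summed FPKM of Myl2 and Myl7 in E10.5 ventricle, 13.7% in E13.5 ventricle and 0.00622% in adult ventricle. Myl4 made up 66.6% of the sum of Myl3 and Myl4 in E10.5 ventricle, 52.2% in E13.5 ventricle and 0.0639% in adult ventricle. Both embryonic libraries therefore carried the ventricular form as the larger part of their regulatory chain transcripts. The atrial form was the larger part of the essential chain transcripts at E10.5. At E13.5 the essential pair was close to even, with Myl4 1.09-fold above Myl3 in 1 library. Both shares were lower at E13.5 than at E10.5, and in adult ventricle the ventricular form exceeded the atrial one 16080-fold for the regulatory pair and 1563-fold for the essential pair. These adult ratios and shares rest on the few fragments of Myl7 and Myl4 given above, so they are imprecise.

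Between either embryonic library and adult ventricle, the sum of each pair differed far less than its atrial form did. Regulatory chains (Myl2 and Myl7) summed to 10243 FPKM in E10.5 ventricle, 14152 in E13.5 ventricle and 11569 in adult ventricle, and essential chains (Myl3 and Myl4) to 3251, 4678 and 2216 FPKM. Regulatory over essential transcripts per length stood at 3.15, 3.03 and 5.22 in the same order. The 4 cardiac chains together held 2.24%, 2.33% and 3.11% of all FPKM of their library. Relative to the geometric mean of Tnnt2, Tnnc1 and Actc1, their sum was 9.20 in E10.5 ventricle, 7.96 in E13.5 ventricle and 5.08 in adult ventricle. That mean was itself higher at each later stage, at 1466, 2365 and 2713 FPKM.

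**Figure D2:**
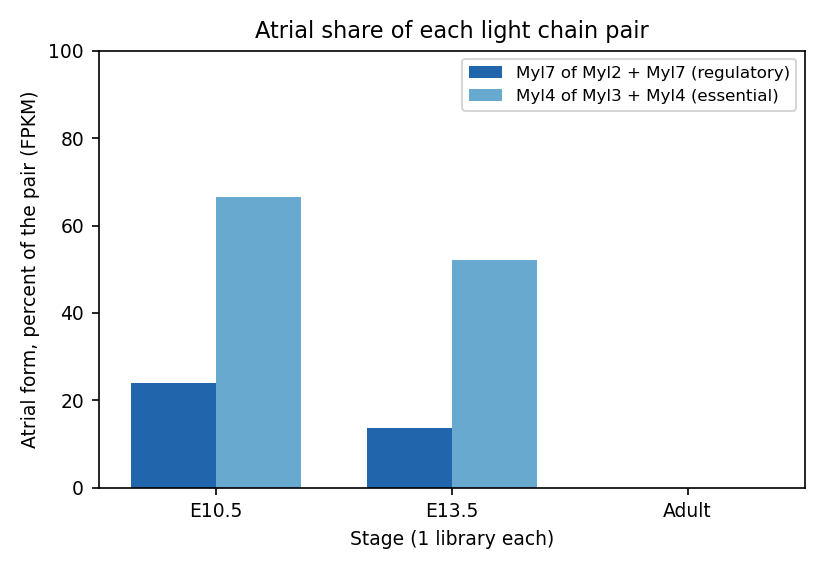
Share of the atrial form in each light chain pair (vertical axis, percent of the pair's summed FPKM, starting at 0) at the 3 stages, with 1 bar per library. Myl7 is at 24.0% and 13.7% and Myl4 at 66.6% and 52.2% in the embryonic libraries, while both adult bars are too small to be seen, at 0.00622% and 0.0639%.

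The promoters of the cardiac chains are shown because these genes divide into a pair present at each stage and a pair nearly missing in adult ventricle. For each gene the 250 bases before the start of the RefSeq transcript were read from the GRCm38.p6 genome (the assembly of mm10), 5′ to 3′ on the strand of the gene. The windows were chr5:122100730-122100979 for Myl2 (plus strand), chr11:5898783-5899032 for Myl7 (minus strand) and chr9:110763431-110763680 for Myl3 (plus strand). For Myl4 the window lies before a further RefSeq start, chr11:104576735-104576984 (plus strand), as explained after the sequences. Capitals mark matches, on either strand, to any of 8 motifs, which were a TATA box (TATAAA), an E-box (CANNTG), a GATA motif (AGATAA), an NKX motif (TNAAGTG), a T-box motif (AGGTGT), an MCAT motif (CATTCC), a CArG box and a MEF2 site.
Myl2: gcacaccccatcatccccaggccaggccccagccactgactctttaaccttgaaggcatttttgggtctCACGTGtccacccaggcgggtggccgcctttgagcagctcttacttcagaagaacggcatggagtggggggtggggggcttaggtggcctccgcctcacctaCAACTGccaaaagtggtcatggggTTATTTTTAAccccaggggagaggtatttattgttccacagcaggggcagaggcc
Myl7: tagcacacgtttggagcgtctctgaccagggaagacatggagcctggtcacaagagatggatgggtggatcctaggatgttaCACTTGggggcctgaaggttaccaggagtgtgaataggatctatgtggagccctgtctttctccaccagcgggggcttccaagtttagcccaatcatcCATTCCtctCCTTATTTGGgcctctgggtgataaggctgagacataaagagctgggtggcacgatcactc
Myl3: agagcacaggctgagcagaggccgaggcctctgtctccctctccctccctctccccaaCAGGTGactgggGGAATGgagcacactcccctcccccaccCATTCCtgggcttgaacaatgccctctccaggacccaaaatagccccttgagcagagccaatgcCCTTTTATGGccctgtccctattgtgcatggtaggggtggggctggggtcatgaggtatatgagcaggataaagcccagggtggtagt
Myl4: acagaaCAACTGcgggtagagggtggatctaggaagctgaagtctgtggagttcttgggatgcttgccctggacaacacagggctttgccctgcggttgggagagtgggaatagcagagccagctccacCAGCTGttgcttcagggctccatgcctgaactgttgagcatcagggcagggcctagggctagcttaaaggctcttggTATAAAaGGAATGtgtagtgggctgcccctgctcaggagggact

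The windows of Myl7 and Myl3 each held a CArG box, the binding motif of serum response factor, 61 to 52 and 88 to 79 bases before the start. They also each held an E-box and the MCAT motif, the motif of TEAD factors, with 1 MCAT match in Myl7 and 2 in Myl3. Myl2 held a MEF2 site 55 to 46 bases before its start and a pair of E-boxes. Thus a CArG box stood in the window of 1 atrial and 1 ventricular chain gene. Over the 9 members, with Myl4 taken at the start in the deposited annotation, a CArG box was found in 3 (Myl7, Myl3 and Myl9), an MCAT motif in 4, a MEF2 site in 1, a TATA box in 1 and an E-box in 6, with none of the marked matches overlapping. Among 20115 windows of the same length before mRNA loci, the shares were 1.25%, 11.1%, 2.65%, 11.9% and 61.6%. The GATA, NKX and T-box letters were in 0 of the 9 windows, against 8.62%, 9.14% and 10.9% of all windows. A match describes the letters only and says nothing of binding.

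The start of Myl4 needs care. The deposited annotation has 1 Myl4 transcript, starting at 104550663, which is 43 bp from the start of the Cdc27 locus on the other strand (Cdc27 is a subunit of the anaphase-promoting complex). None of the 8 motifs was in the 250 bases before that start. RefSeq on GRCm38.p6 lists further curated Myl4 starts 26322 and 26618 bp downstream. The locus value does not tell these starts apart. In the window printed above, before the first of them, a TATA box stood 44 to 39 and an MCAT motif 37 to 32 bases before the start. E-boxes stood 244 to 239 and 121 to 116 bases before it. The window before the second start held no TATA box or MCAT motif. It held E-boxes 169 to 164 and 27 to 22 and a T-box motif 115 to 110 bases before that start. Cdc27 was at 47.4 FPKM in E10.5 ventricle, 29.1 in E13.5 ventricle and 14.8 in adult ventricle, while Myl4 was 1527-fold lower in adult ventricle than in E10.5 ventricle.

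The size of the differences between stages was set against all expressed mRNA loci. A locus was counted when its change reached 2 on the log2(FPKM + 1) scale in either direction, which understates the change of low loci. From E10.5 to E13.5, 0 of the 9 members passed in either direction, beside 0.851% of mRNA loci upward and 0.247% downward, 1.1% in all. From E13.5 to adult ventricle, 4 members were past the limit downward (Myl7, Myl4, Myl9 and Myl1) and 0 upward, beside 9.88% of mRNA loci downward and 4.41% upward (5.9% and 7.45% with median-of-ratios scaling). From E10.5 to adult ventricle, 4 were past it downward (Myl7, Myl4, Myl9 and Mylpf) and 0 upward, beside 8.1% and 5.59% of mRNA loci (5.85% and 8.28% with median-of-ratios scaling). The median change of the 9 members was 0.48, -1.98 and -1.36 in these 3 comparisons, beside 0.17, -0.50 and -0.40 over the mRNA loci. The comparisons share libraries.

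**Figure D3:**
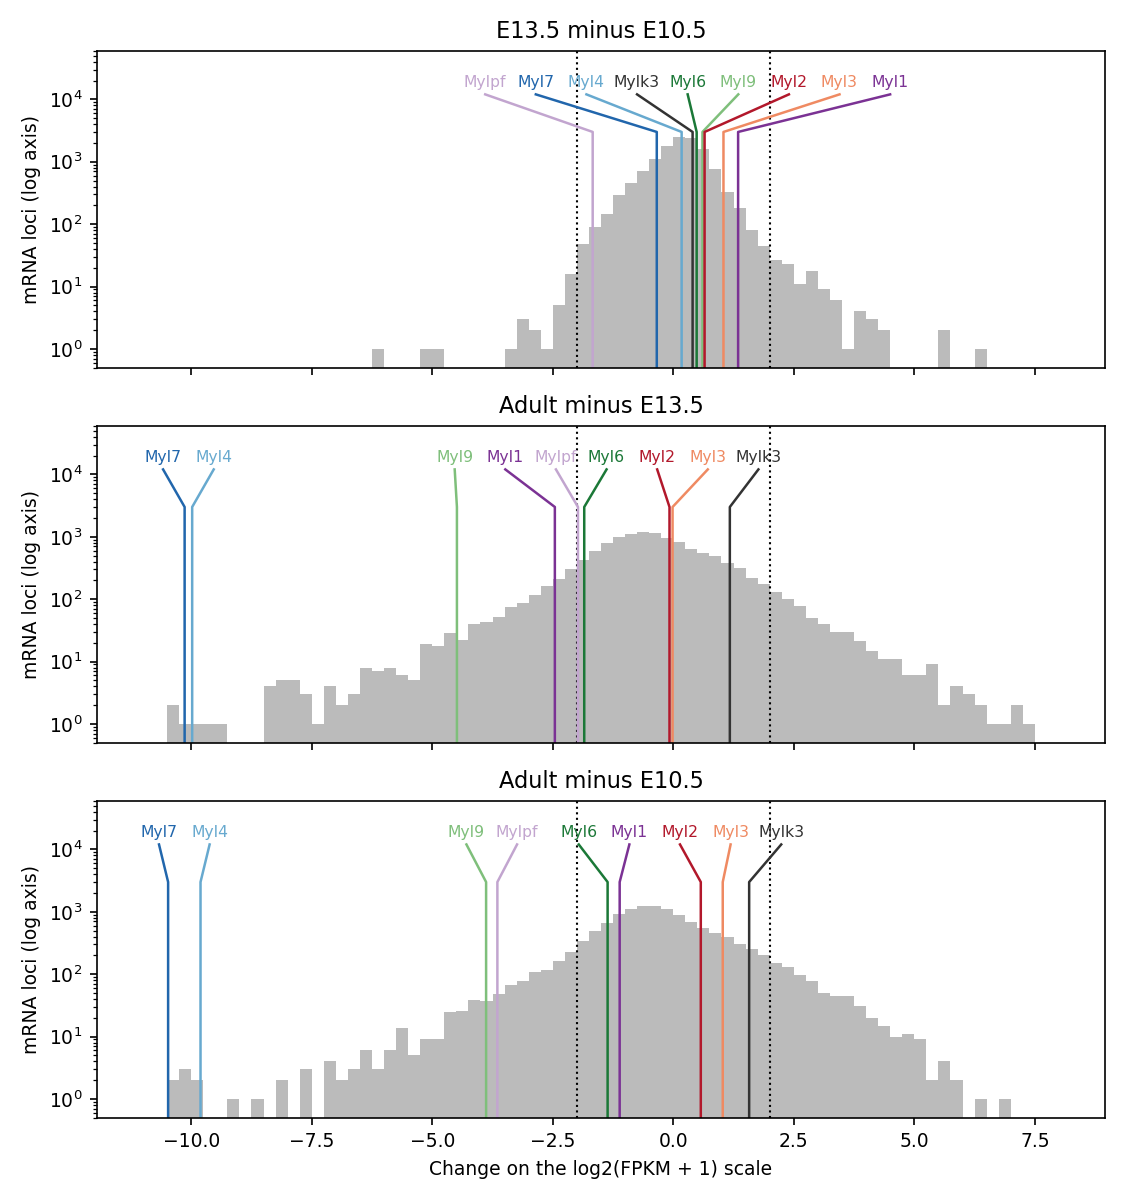
Histograms of the change on the log2(FPKM + 1) scale (horizontal axis) of 12569 expressed mRNA loci (vertical log axis, number of loci) for the 3 pairs of stages, with a labelled line at the change of each of the 9 genes and dotted lines at the limits of 2 in either direction. No gene passes the limit between the embryonic stages, and Myl7 and Myl4 sit near the left end in both comparisons with adult ventricle, at -10.48 and -9.81 from E10.5. Loci beyond the outer bins are not drawn, such as Hbb-y at -11.93 from E13.5 to adult ventricle.

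Markers of atrial tissue were read beside the atrial light chains. The 7 markers (Sln, Nppa, Bmp10, Nr2f1, Nr2f2, Gja5 and Stard10) summed to 1876 FPKM in E10.5 ventricle, 2509.7 in E13.5 ventricle and 53.2 in adult ventricle, and none was listed at 0. Nppa, the atrial natriuretic peptide, which embryonic ventricular trabeculae also express, made up 1744, 2385 and 37.9 FPKM of these sums. Sln, the sarcolipin gene of atrial muscle, was at 21.3, 7.11 and 0.898 FPKM, and the nuclear receptor gene Nr2f2 of atrial identity was at 5.85, 4.03 and 3.88. Bmp10, a trabecular and atrial growth factor gene, was at 57.2, 26.2 and 0.0610 FPKM. Other markers were highest at E13.5, with Nr2f1 at 0.393, 2.65 and 0.697 FPKM, Gja5 at 36.7, 71.2 and 2.38, and Stard10 at 10.7, 13.8 and 7.43. From E10.5 to adult ventricle 4 of the 7 were past the limit downward, beside 8.1% of mRNA loci, with a median change of -3.48. The part of atrial tissue in the Myl7 and Myl4 values was not tested.

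Patterns most like the cardiac chains were sought among 7603 other mRNA loci at 10 FPKM or more in a library, by the distance between log2(FPKM + 1) values centred over the 3 stages. The nearest locus to Myl7 was Tnni1, the slow skeletal troponin I gene of the embryonic heart, at a distance of 0.20, with 2425 FPKM in E10.5 ventricle, 2289 in E13.5 ventricle and 0.737 in adult ventricle. The embryonic globin gene Hba-x (0.46) and Myl4 itself (0.50) followed. For Myl4 the smallest distance (0.28) was to the joined locus of the heavy chain genes Myh6 and Myh7, which rests on its listed 0 in adult ventricle and was not among the 3 nearest with a pseudocount of 0.1, so it is not read as a likeness. Hba-x (0.39) and Tnni1 (0.46) followed. Those nearest to Myl2 were Ndel1, Vps4a and Pex7 (0.03 each), which were all under 50 FPKM, and those nearest to Myl3 were Cdc42ep3 (0.0045), Tmem126b (0.02) and Mcfd2 (0.02). With 3 values per gene such distances are a description only.

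The fast skeletal chains were far below the 4 cardiac chains in both embryonic libraries. Myl1 (chromosome 1, 66924186 to 66945056, minus strand) was at 27.8 FPKM in E10.5 ventricle, 72.1 in E13.5 ventricle and 12.3 in adult ventricle, so its level was highest at E13.5. Its 2.60-fold higher value at E13.5 than at E10.5 was the largest step upward of any member between the embryonic stages, at 1.34 on the log2(FPKM + 1) scale. The change of -2.46 from E13.5 to adult ventricle was past the limit as deposited but was -1.86 with median-of-ratios scaling. The locus holds 9 transcripts from 6 start sites. They include the RefSeq forms that start at 66945056 and at 66935366, 9690 bp further into the gene, which belong to the known long and short fast essential chains (MLC1f and MLC3f). The locus value does not separate them.

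Mylpf (chromosome 7, 127208784 to 127214296, plus strand) followed the opposite order in the embryo, at 29.9 FPKM in E10.5 ventricle, 8.69 in E13.5 ventricle and 1.46 in adult ventricle, the last resting on about 12.3 to 15.8 fragments. It was 3.44-fold lower at E13.5 than at E10.5, and 100 of the 12569 mRNA loci had a lower change. On the log2(FPKM + 1) scale this was -1.67, within the limit, but -2.05, -2.04 and -2.33 under 3 of the 4 other scalings. Its locus joins the RefSeq transcript starting at 127211608 with assembled transcripts starting 2758 and 2210 bp upstream and with 1 unspliced transcript of 550 nt that matched no reference gene. The upstream end of the locus lies 316 bp from the start of Tbc1d10b on the other strand, at 10.4, 16.3 and 6.31 FPKM.

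Fast skeletal muscle markers did not share 1 order with these chains. The 9 markers summed to 24.0 FPKM in E10.5 ventricle, 56.5 in E13.5 ventricle and 2.26 in adult ventricle, and 1, 1 and 0 of them exceeded 10 FPKM. Tnni2, the fast troponin I gene, had most of each sum with 17.5, 51.0 and 1.52 FPKM, highest at E13.5 like Myl1. Tnnt3, the fast troponin T gene, was at 4.21, 3.47 and 0.563 FPKM, and Actn3 at 2.16, 1.30 and 0.0398, highest at E10.5 like Mylpf. Among the defining genes, the myogenic factor gene Myod1 was listed at 0 at E10.5 and in adult ventricle, Tnnc2 at E10.5 and the heavy chain gene Myh2 at E13.5. The part of skeletal muscle in the Myl1 and Mylpf values was not tested.

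The members of smooth muscle and non-muscle cells, Myl9 and Myl6, had their lowest FPKM in adult ventricle, and Myl9 alone was past the limit. Myl9 (chromosome 2, 156775464 to 156781657, plus strand), the regulatory chain of smooth muscle, was at 539.8 FPKM in E10.5 ventricle, 822 in E13.5 ventricle and 35.7 in adult ventricle. Its adult level was 15.1-fold lower than at E10.5 and 23.0-fold lower than at E13.5, changes of -3.88 and -4.49 that stayed past the limit under each scaling. Myl6 (chromosome 10, 128490861 to 128493836, minus strand), the essential chain of the same cells, was at 89.7, 126 and 34.3 FPKM. Its changes of -1.36 from E10.5 and -1.85 from E13.5 lay within the limit, but were -2.23 and -2.04 relative to Tnnt2, Tnnc1 and Actc1. Per length, Myl9 exceeded Myl6 6.02-fold and 6.53-fold in the embryonic libraries and 1.04-fold in adult ventricle.

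Smooth muscle markers differed between stages in both directions. The 6 markers summed to 1326 FPKM in E10.5 ventricle, 1236 in E13.5 ventricle and 210.6 in adult ventricle. From E13.5 to adult ventricle, 3 were past the limit downward and 1 upward, beside 9.88% and 4.41% of mRNA loci. Acta2 (smooth muscle actin, also expressed by embryonic cardiomyocytes) was at 1089.5, 836 and 124 FPKM, Tagln at 134, 254 and 41.6, and Cnn1, the calponin gene, at 87.3, 136 and 2.87. The smooth muscle heavy chain gene Myh11 went the other way, at 0.112, 0.893 and 18.1 FPKM. Smtn, at 14.6, 8.25 and 21.9 FPKM, and Lmod1, at 1.19, 1.40 and 1.65, were also highest in adult ventricle, within the limit. Mural cell markers summed to 88.3, 81.1 and 368 FPKM and endothelial markers to 176, 109.6 and 201. Fibroblast markers summed to 90.3, 154 and 379.9 FPKM and erythroid markers to 6758, 16348.5 and 24.5. From E13.5 to adult ventricle the median changes of these lists were 2.07, 1.08, -0.94 and -8.40. Single genes held much of some sums, with Rgs5 at 240 and Dcn at 351 FPKM in adult ventricle and Hbb-y at 15112 at E13.5. Cspg4 and Tcf21 were lowest in adult ventricle against their sums, at 17.4, 5.03 and 4.34 FPKM and 18.3, 22.9 and 1.79. Alas2 was at 18.2, 34.1 and 19.6 FPKM. The part of these cells in the Myl9 and Myl6 values was not tested.

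**Figure D4:**
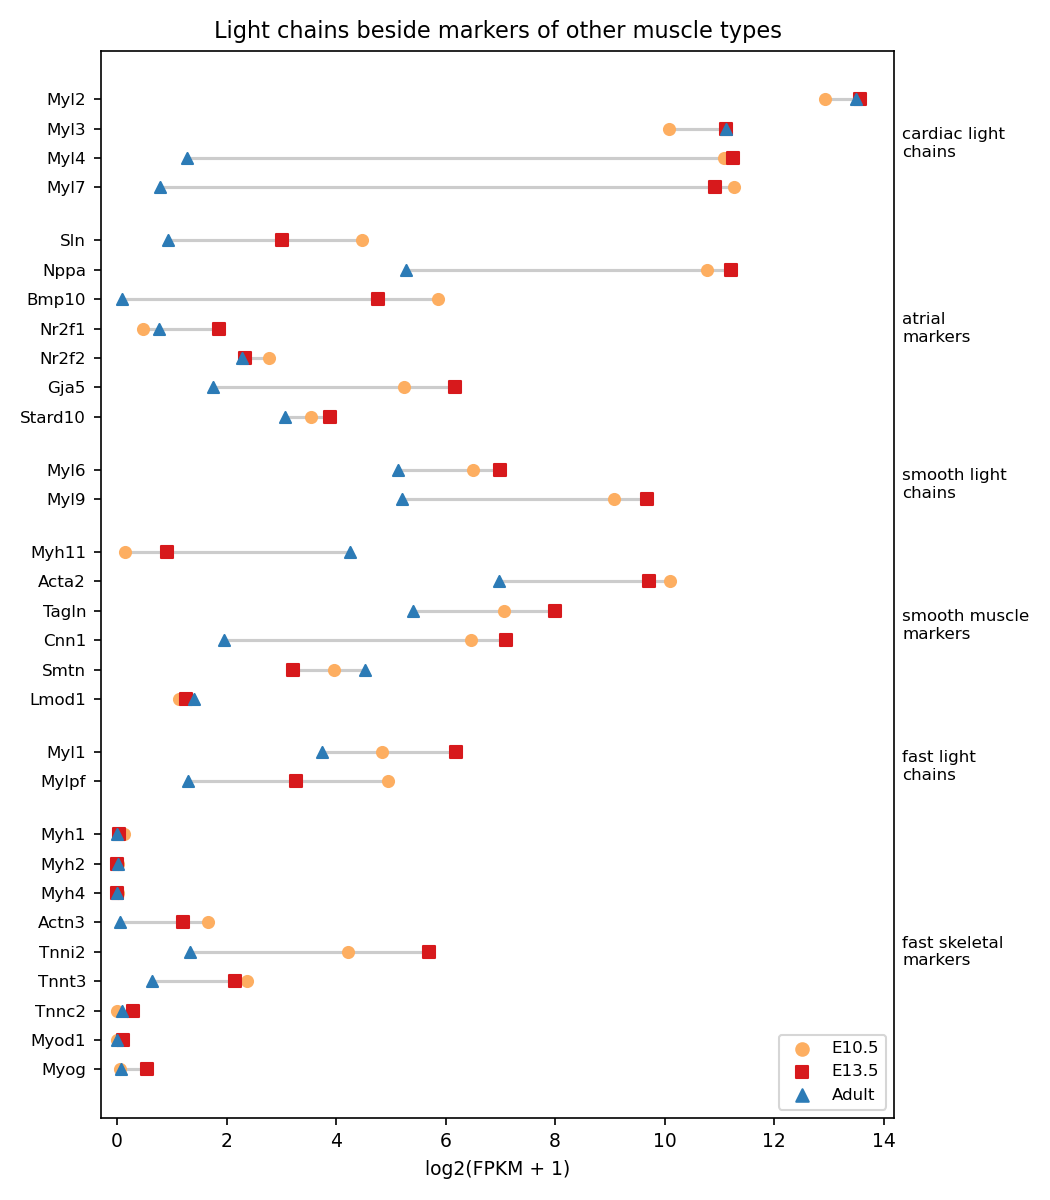
Levels on the log2(FPKM + 1) scale (horizontal axis) of the 8 light chain genes and of atrial, smooth muscle and fast skeletal muscle markers (rows), with 1 symbol per stage and a line from the lowest to the highest. Myl4 and Myl7 show the widest lines, Myh11 is highest in adult ventricle while Cnn1 and Myl9 are lowest there, and Tnni2 stands out among the fast skeletal markers with 51.0 FPKM at E13.5.

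The kinase gene Mylk3 (chromosome 8, 85321233 to 85381466, minus strand) was the one member besides the ventricular chains with a higher level in adult ventricle than at E10.5. It was at 61.4 FPKM in E10.5 ventricle, 81.4 in E13.5 ventricle and 185 in adult ventricle, 3.01-fold higher than at E10.5, and its adult value was above both embryonic ones under each scaling. On the log2(FPKM + 1) scale the change was 1.57, within the limit, and 2.03 with median-of-ratios scaling. For each 1000 FPKM of its substrate Myl2 there were 7.88, 6.66 and 15.97 FPKM of Mylk3, ratios that do not depend on the scaling.

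Other enzymes that act on regulatory light chains were read as a list of 10 genes. From E10.5 to adult ventricle 2 of the 10 loci were past the limit upward and 0 downward, beside 5.59% and 8.1% of mRNA loci. The median change was 0.25 over the 10 loci and 0.38 over the 9 that were expressed, beside -0.40 over the expressed mRNA loci. Mylk, the kinase of smooth muscle and non-muscle cells, was at 1.08, 3.01 and 12.9 FPKM, a change of 2.74. Mylk4, a further kinase of the family, was at 0.637, 0.0438 and 11.1 FPKM, a change of 2.88. The level of Mylk3 exceeded that of Mylk 57.1-fold at E10.5, 27.1-fold at E13.5 and 14.3-fold in adult ventricle. The kinase of skeletal muscle, Mylk2, stayed under 0.2 FPKM in each library.

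Among the phosphatase subunits, which remove the phosphate, the catalytic subunit Ppp1cb was at 195, 154 and 171 FPKM. The targeting subunit Ppp1r12a was at 49.9, 53.3 and 28.8 FPKM and Ppp1r12b at 12.2, 13.0 and 41.7, so their order of levels differed between the embryonic libraries and adult ventricle. Ppp1r12c was at 8.07, 15.3 and 10.8 FPKM. Of the kinase genes Rock1 and Rock2, the first was at 27.98 FPKM, listed at 0 and at 27.8 FPKM, and the second at 29.7, 23.2 and 47.3 FPKM. An exact 0 between values near 28 FPKM can be a failed estimate, and Rock1 makes up the 1 locus of the list past the limit between the embryonic stages. Dapk3, which can also phosphorylate regulatory chains, was at 23.4, 24.6 and 5.99 FPKM.

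The remaining light chain genes differed little between stages in FPKM, though only 1 of their loci reached 1 FPKM. The locus that joins Myl12a and Myl12b, regulatory chains of non-muscle myosin, was at 186, 241 and 192 FPKM, which put it above Myl6 in each library and above Myl9 in adult ventricle alone. Myl6b was at 0.643, 0.591 and 0.662 FPKM, and Myl10 was listed at 0 in each library. The joined locus passed the limit in no comparison, while Myl6b and Myl10 lay too low for a change to reach it.

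Myosin heavy chains, the partners of the light chains, could be read only in part. Myh6 and Myh7, the alpha and beta cardiac heavy chains, share 1 locus at 1029 FPKM in E10.5 ventricle, 1329 in E13.5 ventricle and a listed 0 in adult ventricle, where Myl2 was at 11568, so the cardiac heavy chain level of adult ventricle was not readable. Of the 13 heavy chain loci, 2 were past the limit upward from E10.5 to adult ventricle (Myh11 and Myh14, at 0.577, 0.133 and 6.26 FPKM for the latter). Myh10 was past it downward. Over the mRNA loci the shares were 5.59% upward and 8.1% downward. The joined locus also counts as downward in the summary of the list, but only through its listed 0. The non-muscle heavy chain gene Myh10 was at 62.2, 76.0 and 4.38 FPKM, in the same order of stages as Myl9, while the non-muscle gene Myh9 was at 34.6, 21.6 and 26.5. The skeletal genes Myh1, Myh2, Myh3, Myh4, Myh8 and Myh13 stayed under 0.3 FPKM in each library.

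**Figure D5:**
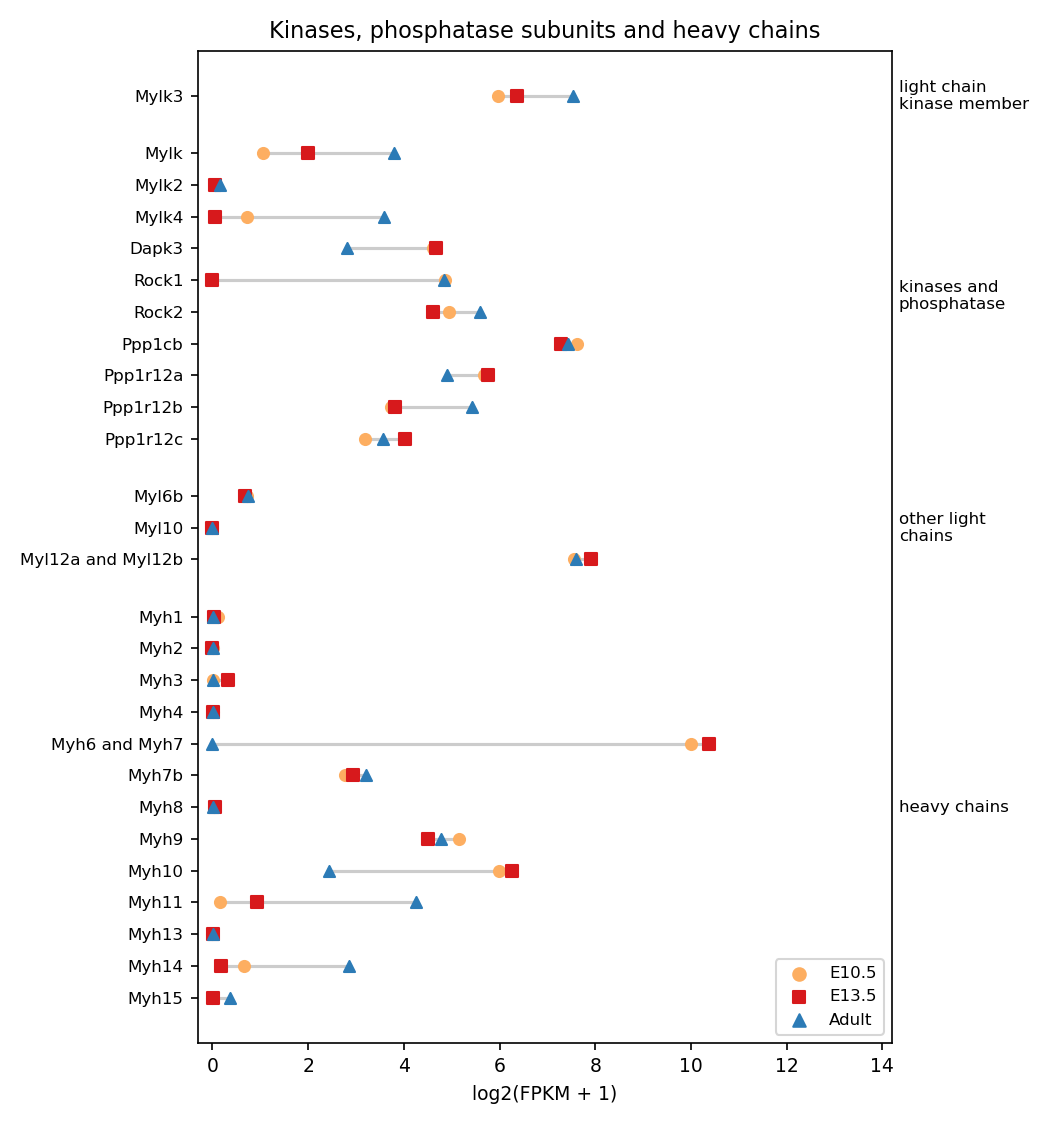
Levels on the log2(FPKM + 1) scale (horizontal axis) of Mylk3, of the kinase and phosphatase list, of the other light chains and of the myosin heavy chains (rows), with 1 symbol per stage and a line from the lowest to the highest. Mylk3, Mylk, Mylk4 and Myh11 are highest in adult ventricle and Myh10 is lowest there, and the symbols at 0 for Rock1 at E13.5 and for the joined Myh6 and Myh7 locus in adult ventricle are listed zeros.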

How the data were processed

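Total RNA libraries of heart ventricle, 1 per stage, were made with a stranded total RNA kit. Per the study's text, alignment to mm10 used TopHat2 and assembly used Cufflinks, in runs that did and did not take a UCSC annotation. The authors deposited FPKM values per merged locus. Tool versions, and how multiply mapped fragments were handled, are not given in the sources used here. Paralogs such as the light chains may share reads. Members and gene lists were chosen with earlier results of these data known. The named genes were the 9 members, the listed genes, any gene joined with a member and the 3 loci nearest in pattern to each cardiac chain.

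Loci with a transcript equal to a RefSeq mRNA were counted as mRNA loci (20117), of which 12569 reached 1 FPKM in a library. Changes were differences of log2(FPKM + 1), counted at 2 or more. No test was possible with 1 library per stage. Alternatives were a pseudocount of 0.1, 4 other scalings, other limits of change and level, and ranks over all loci. A gene was read from the locus holding its RefSeq transcript. The depth estimate is approximate, since read counts were not used here. Of 60 introns of member RefSeq transcripts, 59 were GT to AG in the GRCm38.p6 sequence at the deposited coordinates. Steps were tested on simulated data, in which 1 fragment was the most common count, so a depth estimate resting on a higher count was not tested. Python 3.11.15, numpy 2.4.6, pandas 2.3.3 and pysam 0.24.0 were used.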

Additional observations from a re-analysis of the deposited data

How the results depend on the processing

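No paired analysis was possible because there was only 1 library for a stage, and for the same reason no library could be left out. Of 135 recalculated member changes, 51 moved by more than 1.5-fold. The sign turned in 16 of the 135, all within the limit of 2, and 14 passed to the other side of that limit. With a limit of 1, the members past it were 2 upward and 1 downward from E10.5 to E13.5, 1 and 6 from E13.5 to adult ventricle, and 2 and 6 from E10.5 to adult ventricle. Under median-of-ratios scaling 1 member, Mylk3, was past the limit upward from E10.5 to adult ventricle, and 3 were past it downward from E13.5 to adult ventricle. The other counts of members stayed within 1.5 times. The share of mRNA loci past the limit downward from E13.5 to adult ventricle lay between 5.9% and 32.1% in the alternatives, and the share upward from E10.5 to adult ventricle between 3.49% and 14.8%. Leaving out loci listed at 0 in a library, an alternative chosen after seeing the data, gave 9.8% and 5.5%. Of the genes nearest in pattern, Tnni1, Hba-x and Myl4 stayed nearest to Myl7 with a pseudocount of 0.1, while those of Myl4 became Hist1h1b, Tnni1 and Myl7. Those of Myl2 became Pex7, Coq7 and Aes, and those of Myl3 Pla2g12a, Mcfd2 and Tmem126b. Depth limits the adult values of Myl7, Myl4 and Mylpf.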

Other observations

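Several loci next to the members had levels of their own. A spliced locus without a gene name lay 535 bp before that of Myl2 on the same strand (chromosome 5, 122093012 to 122099099), at 4.78 FPKM in E10.5 ventricle, 1.32 in E13.5 ventricle and 12.1 in adult ventricle. RefSeq on GRCm38.p6 places curated Myl2 starts at 122092724 and 122093189, the first before the unnamed locus and the second inside it. The Myl2 locus itself was at 7789.8 to 12217 FPKM.

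Within the span of Mylk3 lay 4 unspliced loci on its strand without a gene name, between 85369630 and 85377504 on chromosome 8. They were at 0.293 to 0.736 FPKM in E10.5 ventricle, 0.0233 to 0.107 in E13.5 ventricle and 0.946 to 1.84 in adult ventricle, so each was lowest at E13.5, where Mylk3 itself was not. Curated RefSeq starts of Mylk3 lie at 85365324 and 85381041, on either side of these loci.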
